A study of Mus musculus with 4 samples.

Results

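The genes described here are 37 Polycomb and Trithorax group genes, chosen as a list of complex subunits and histone-modifying enzymes and read on 4 mouse arrays. A gene was taken when a probe set carried its symbol alone, and where several did, the brightest on average stood for it, which gave 35 of the 37 genes out of 22180 genes with such a probe set. Cbx6 and Kdm2b are each assigned to a probe set together with other genes, so no value is given for them. Of the 35 genes, 21 belong to the Polycomb repressive complexes PRC1 and PRC2, 4 are histone demethylases and 10 belong to the complexes that methylate histone H3 at lysine 4.

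Total RNA from 4 cultures was hybridised to 1 array each, so no condition has a replicate. At day 6 of doxycycline, which switches on the reprogramming factors, RNA was taken in bulk from 2 cultures of reprogrammable embryonic fibroblasts of the Black6-129X1/SvJ strain, pooled from male and female; ascorbic acid was given as well. In one culture Firefly, a luciferase gene that mouse cells lack, was the knockdown target, and in the other Sumo2, a small ubiquitin-like modifier. The 2 other arrays hold stable induced pluripotent stem cell (iPSC) lines derived from Sumo2 knockdown fibroblasts and labelled 38 h and 10 day; what these times count is not stated in the labels. All 4 cultures share the strain, the growth medium for embryonic stem cells and the treatment with doxycycline and ascorbic acid, as the labels give them. No iPSC line without Sumo2 knockdown is among the samples, so the line comparison cannot separate that history from the pluripotent state. Each line is 1 sample, and the labels do not say how many clones it holds.

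Values are log2 expression as RMA, a method that corrects background, equalises arrays and summarises probes, gives it. The median of all single-symbol probe sets on an array served as its measuring floor, and a gene was taken as measured where any array of a comparison reached it. The floor was 6.64 to 6.67 on the 4 arrays. Of the 35 genes, 34 were measured and 32 lay above the floor on all 4 arrays. Cbx8 lay below the floor everywhere (6.40, 6.18, 6.03 and 6.15 on the Firefly, Sumo2, 38 h and 10 day arrays), and Bmi1 reached it on the Sumo2 array only. Because a value depends on its probes, levels are compared between arrays and never between genes.

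At day 6 the Sumo2 transcript read 10.65 in the Firefly culture and 10.56 in the other. Its level does not show the knockdown, so the second culture is named throughout by its label, as the culture labelled Sumo2 knockdown. Each direction drawn from that culture rests on the label. In the 38 h and 10 day lines, derived from Sumo2 knockdown fibroblasts, the Sumo2 transcript was higher than in both cultures, at 11.40 and 11.07. Of 8 pluripotency markers (Nanog, Sox2 and Zfp42 among them), 3 lay above the floor in the Firefly culture, 5 in the culture labelled Sumo2 knockdown and all 8 in both lines. Of 8 fibroblast markers, 8, 7, 7 and 6 lay above it on the Firefly, Sumo2, 38 h and 10 day arrays, so transcripts of fibroblast genes were still read in the lines, with Col1a1 at 10.64 and 10.38. Expressed as the log2 of their summed signal, fibroblast markers went from 13.53 and 13.14 in the day 6 cultures to 12.30 and 12.02 in the lines. In RNA from bulk cultures, fewer cells of a type and less RNA per cell cannot be told apart. The Y-linked genes Kdm5d, Uty and Eif2s3y read 7.71 to 8.17 at day 6 and 4.55 to 5.40 in the lines, below the floor in both, although the labels call all 4 samples a pool of male and female.

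Polycomb proteins keep developmental genes silent. PRC2 methylates histone H3 at lysine 27 through Ezh1 or Ezh2, and PRC1 attaches ubiquitin to histone H2A through Ring1 or Rnf2, joined by 1 of several PCGF proteins and by either CBX and PHC subunits or other partners. Trithorax group proteins act on the opposite side, with methyltransferases of the SET1 and KMT2 families working on a shared core of Wdr5, Ash2l, Rbbp5 and Dpy30. In pluripotent cells both marks lie together on many developmental genes, and the subunits used differ between pluripotent and differentiated cells.

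Promoter sequences of 30 of the 37 genes were found in RefSeq (GRCm38.p6), as 44 windows of 300 bases. They were searched on both strands for TTTGGCGC, TTTCCCGC and TTTCGCGC, forms of the site bound by E2F, the factor family that drives S phase genes, because PRC2 genes are known as E2F targets. A site was present in the windows of 3 genes, all of them PRC2 genes (6.82% of the 44 windows), and in 1.84% of all 32851 promoter windows. All 3 motifs contain CG, and the windows of the listed genes are richer in it, with a median of 23.5 CG against 7.0 in all windows, so the shares are not compared on equal terms and show no excess of sites. The search was chosen with the expression values known, and a match in sequence shows no binding. The 30 bases around each match are shown 5′ to 3′ on the strand of the gene, with the match in capitals.
Ezh2, chr6:47595009-47595038, minus strand, match 4 bases into the transcript: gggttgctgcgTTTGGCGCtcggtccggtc
Suz12, chr11:79992876-79992905, plus strand, match 219 bases before the start: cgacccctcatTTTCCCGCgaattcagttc
Phf19, chr2:34914166-34914195, minus strand, match 208 bases before the start: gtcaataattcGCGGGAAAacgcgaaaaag
In Ezh2 and Suz12 the site reads along the strand of the gene, and in Phf19 it lies on the opposite strand. Ezh2 and Suz12 rose in the lines, while Phf19 did not pass the test, as given below.

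The first comparison set both iPSC lines against both day 6 cultures, the only one with a test. Of 34 measured genes 19 rose, 3 fell and 12 did not pass (limma adjusted p under 0.05 over 12735 measured genes). Over all measured genes 29.0% rose and 17.8% fell. The median log2 difference of the 34 genes was 0.55 against 0.15 for all measured genes. By adjusted p and 2-fold together 12 rose and 1 fell, against 14.3% and 9.12% of all genes. Both lines stood above both day 6 cultures for 22 genes and below them for 5, against 46.8% and 32.7% of all measured genes. The spread behind the test is that within each pair of arrays, steadied by the spread of all measured genes. It contains the Sumo2 label and the difference between lines, and whether the cultures were independent is not stated. The p-values therefore set the difference against that spread and speak for these 4 samples only.

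**Figure D1:**
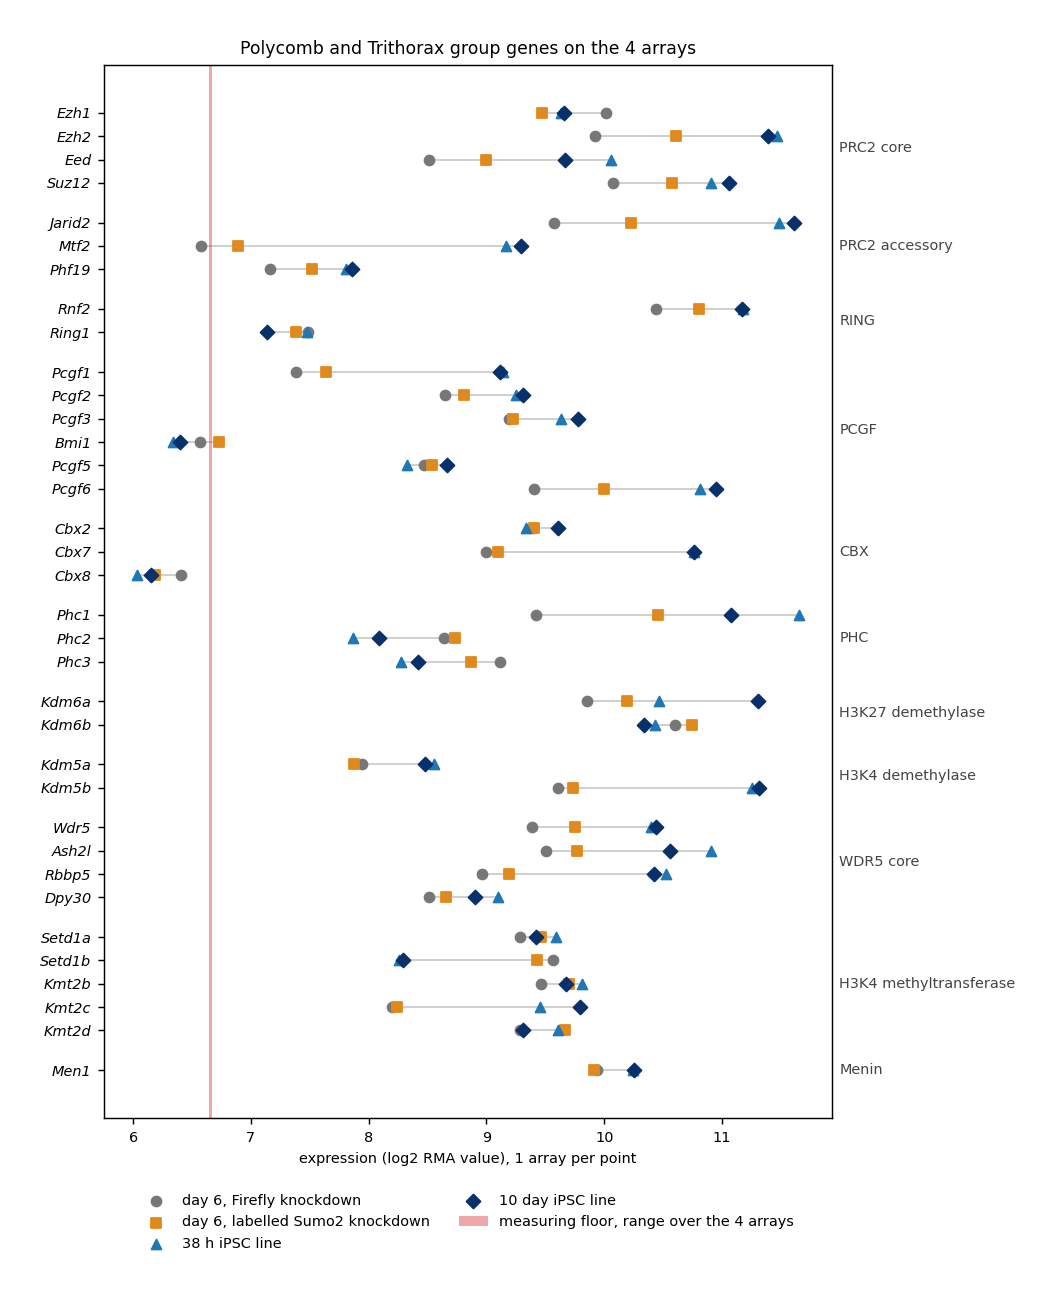
Log2 RMA values of the 35 genes (x axis) on each of the 4 arrays, 1 point per array, grouped by complex; the red band is the measuring floor of 6.64 to 6.67. Cbx8 lies left of the band on all arrays, and for genes such as Mtf2, Cbx7 and Kdm5b both blue iPSC points lie well to the right of both day 6 points.

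Among the PRC2 core genes, 3 of 4 rose, against 29.0% of all measured genes. Ezh2, the main H3 lysine 27 methyltransferase of dividing cells, read 9.92 and 10.61 in the Firefly culture and the culture labelled Sumo2 knockdown and 11.47 and 11.39 in the 38 h and 10 day lines. The lines lay above both cultures, 2.24-fold on average (log2 difference 1.17, SE 0.23, limma adjusted p = 0.00767). Its relative Ezh1, known from cells that divide less, read 10.02 and 9.47 at day 6 and 9.64 and 9.66 in the lines. Ezh1 did not pass (log2 difference -0.09, 95% confidence interval -0.61 to 0.42), its groups overlapped, and its interval did not reach the interval of Ezh2, 0.62 to 1.71. The difference between these genes was not itself tested.

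Eed, the subunit that reads the methyl mark, went from 8.51 and 9.00 to 10.05 and 9.67 in the same order of arrays and rose 2.15-fold (log2 difference 1.11, SE 0.23, limma adjusted p = 0.0101). Suz12, the scaffold of the complex, went from 10.07 and 10.57 to 10.90 and 11.06 and rose 1.58-fold (log2 difference 0.66, SE 0.19, limma adjusted p = 0.0308). In both genes the 2 lines lay above the 2 cultures, and the culture labelled Sumo2 knockdown lay between the Firefly culture and the lines.

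The accessory subunits of PRC2 held the largest difference among the 34 genes. Mtf2, which guides PRC2 to CpG islands, read 6.57, below the floor, in the Firefly culture, 6.89 in the culture labelled Sumo2 knockdown, and 9.17 and 9.30 in the lines. It rose at least 5.53-fold counted from the floor (2.50 on the log2 scale from the unfloored values, SE 0.18, limma adjusted p = 0.000361), and the groups were far apart. Jarid2, a PRC2 partner that is abundant in embryonic stem cells, read 9.57 and 10.23 at day 6 and 11.49 and 11.61 in the lines and rose 3.13-fold (log2 difference 1.65, SE 0.22, limma adjusted p = 0.00226). Phf19, a relative of Mtf2, read 7.16, 7.52, 7.81 and 7.85 on the 4 arrays. Its groups did not overlap, but the difference of 0.49 did not pass (limma adjusted p = 0.0717).

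Markers of cycling cells were read beside the PRC2 genes. Of 9 such genes 6 rose, 0 fell and 3 did not pass, with a median log2 difference of 1.36. Over all measured genes 29.0% rose and 17.8% fell. All 9 markers lay above the floor on every array. Their summed signal on the log2 scale was 13.56 and 13.97 in the Firefly culture and the culture labelled Sumo2 knockdown and 14.74 and 14.68 in the 38 h and 10 day lines. Their part in the PRC2 values was not tested.

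**Figure D2:**
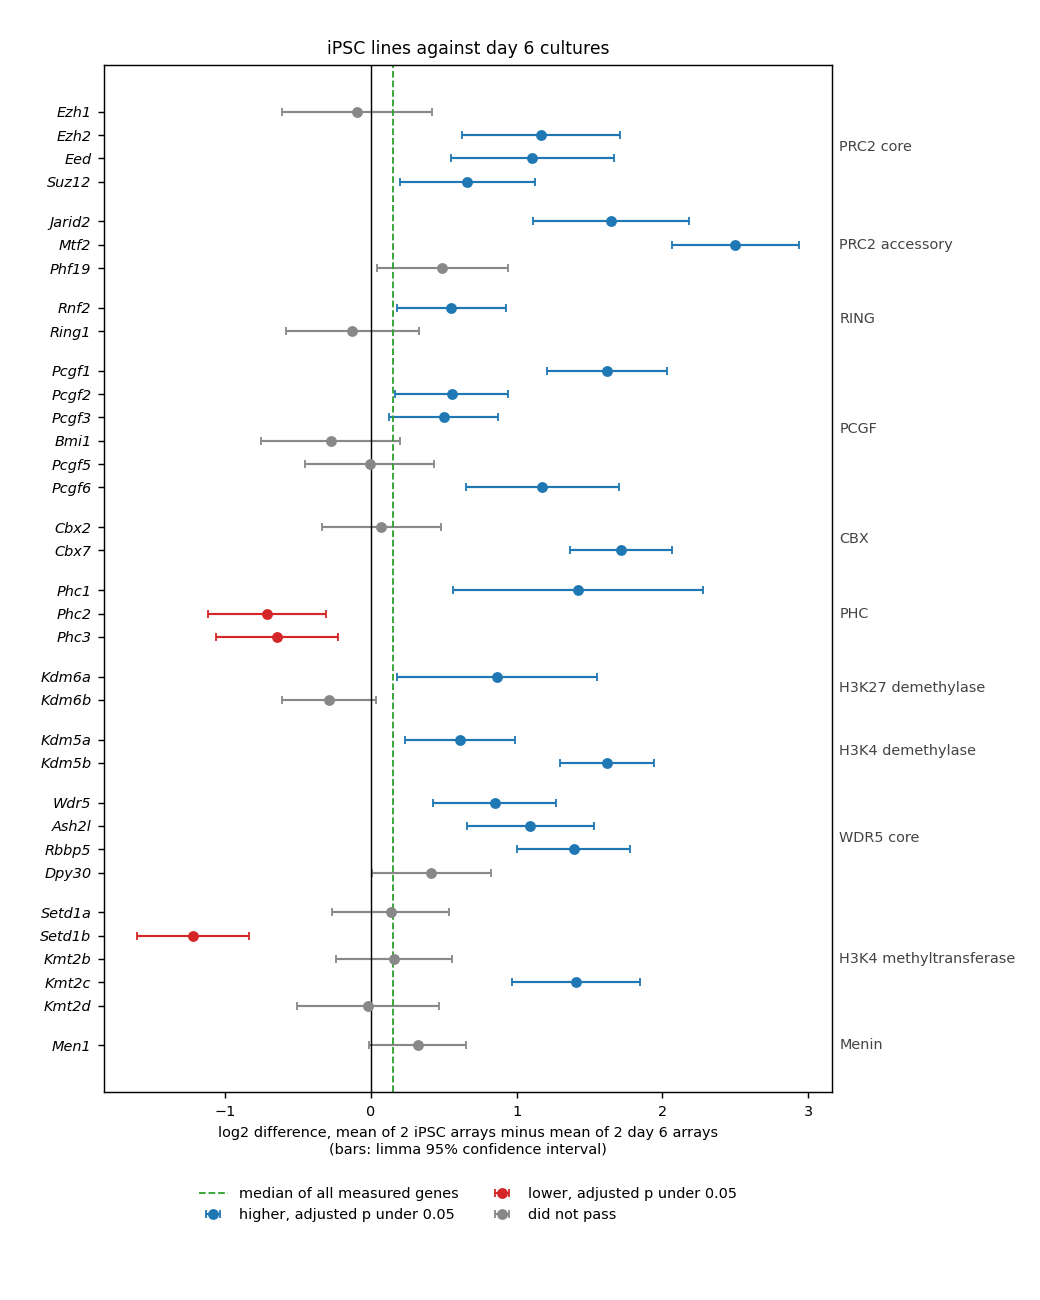
Log2 difference between the mean of both iPSC lines and the mean of both day 6 cultures for the 34 measured genes, with limma 95% confidence intervals; colours mark adjusted p under 0.05 and the dashed line is the median of all measured genes, 0.15. Differences run from -1.22 for Setd1b to 2.50 for Mtf2, and blue genes outnumber red ones by 19 to 3.

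Of 13 measured PRC1 genes 7 rose, 2 fell and 4 did not pass. Over all measured genes 29.0% rose and 17.8% fell, so the falls lie near that background. Of the catalytic subunits, Rnf2, the main ubiquitin ligase of the complex in embryonic stem cells, read 10.44 and 10.81 at day 6 and 11.18 and 11.17 in the lines and rose 1.46-fold (log2 difference 0.55, SE 0.16, limma adjusted p = 0.0279). Its relative Ring1 read 7.48, 7.38, 7.47 and 7.14, with overlapping groups and a difference of -0.13 that did not pass (95% confidence interval -0.58 to 0.33).

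PCGF proteins set which form of PRC1 is built, and 4 of the 6 rose, against 29.0% of all measured genes. Pcgf1, of the variant complex that contains Kdm2b, read 7.38 and 7.64 at day 6 and 9.14 and 9.12 in the lines and rose 3.07-fold (log2 difference 1.62, SE 0.17, limma adjusted p = 0.00101). Pcgf6, of the variant complex with Mga and L3mbtl2, read 9.40, 10.00, 10.81 and 10.94 and rose 2.26-fold (log2 difference 1.18, SE 0.22, limma adjusted p = 0.00662). In both genes the lines lay clear of the cultures.

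The 2 other PCGF genes that rose did so by less. Pcgf2 (Mel18), of canonical PRC1, read 8.65, 8.81, 9.25 and 9.31 (log2 difference 0.55, limma adjusted p = 0.0314). Pcgf3 read 9.19, 9.23, 9.64 and 9.78 (log2 difference 0.50, limma adjusted p = 0.0395). Neither passed when any 1 of the 4 arrays was left out, with limma adjusted p from 0.0606 to 0.134 for Pcgf2 and from 0.0716 to 0.161 for Pcgf3. A second, dimmer Pcgf3 probe set, below the floor on all arrays, went the other way by -0.62, and with the median of both probe sets Pcgf3 stood at -0.062 (limma adjusted p = 0.762). Bmi1, the canonical PCGF protein known for repressing the Cdkn2a locus, read 6.57, 6.73, 6.34 and 6.40, above the floor on the Sumo2 array only and close to it there, and its difference of -0.28 did not pass (limma adjusted p = 0.285). Pcgf5 read 8.47, 8.54, 8.33 and 8.66, and its groups overlapped around a difference of -0.01 (95% confidence interval -0.45 to 0.43).

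Of the CBX proteins, which bind the PRC2 mark through a chromodomain, Cbx7 is the one known to predominate in embryonic stem cells. Cbx7 read 9.00 and 9.10 at day 6 and 10.76 in both lines and rose 3.29-fold (log2 difference 1.72, SE 0.14, limma adjusted p = 0.000533), with little spread within either pair. Cbx2 read 9.39, 9.40, 9.34 and 9.60. The groups of Cbx2 overlapped, and its difference of 0.07 did not pass (95% confidence interval -0.33 to 0.48) and turned to -0.12 after cyclic loess scaling.

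The polyhomeotic subunits, which let PRC1 complexes join into larger assemblies, split. Phc1 read 9.42 and 10.46 at day 6 and 11.65 and 11.07 in the lines and rose 2.68-fold (log2 difference 1.42, SE 0.35, limma adjusted p = 0.0186). Phc1 had the largest SE among the 34 genes, since both pairs of arrays differed within themselves. Phc2 read 8.64, 8.74, 7.86 and 8.08 and fell by 0.71 on the log2 scale (SE 0.17, limma adjusted p = 0.0155). Phc3 read 9.12, 8.87, 8.28 and 8.42 and fell by 0.65 (SE 0.17, limma adjusted p = 0.0240). For all 3 the pairs did not overlap, Phc1 in one direction and Phc2 and Phc3 in the other, and each kept its sign after cyclic loess. The calls rest on single arrays: without the Firefly array Phc1 (0.90, limma adjusted p = 0.0751), Phc2 (limma adjusted p = 0.0707) and Phc3 (limma adjusted p = 0.130) did not pass. Phc2 also did not pass without the culture labelled Sumo2 knockdown (limma adjusted p = 0.0786) or the 38 h line (limma adjusted p = 0.0692), nor Phc3 without the 38 h line (limma adjusted p = 0.0898).

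**Figure D3:**
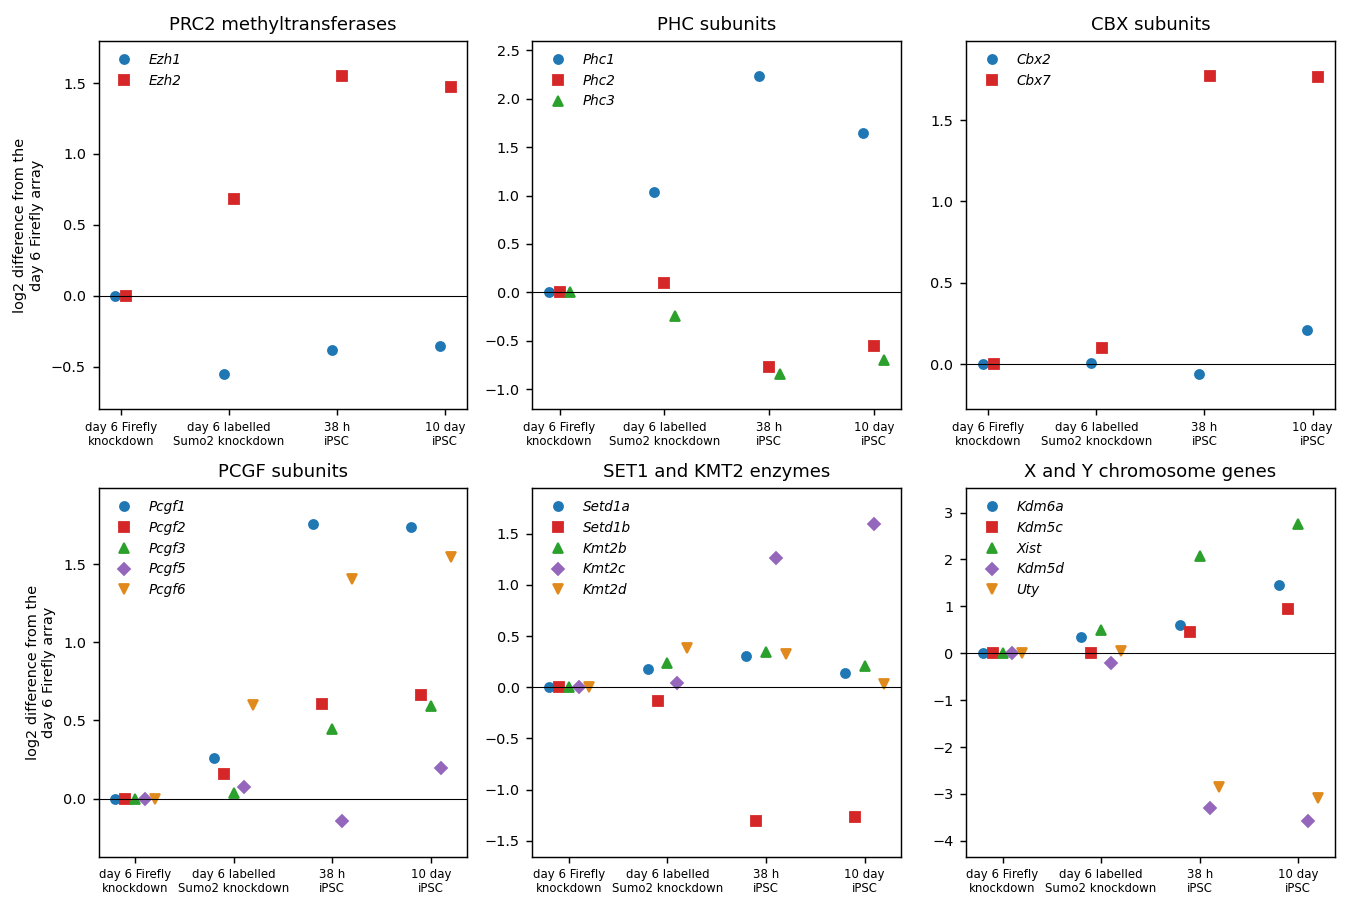
Related genes side by side, each as the log2 difference from its own value in the day 6 Firefly culture (y axis) on the 4 arrays (x axis), 1 point per array. Ezh2 lies above and Ezh1 below the Firefly value on the 3 other arrays, Phc1 lies above while Phc2 and Phc3 lie below in both lines, and Kdm6a and Xist are higher in the 10 day than in the 38 h line while Kdm5d and Uty are low in both.

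The demethylases remove either mark. Kdm5b, which removes lysine 4 methylation, read 9.60 and 9.73 at day 6 and 11.26 and 11.32 in the lines and rose 3.07-fold (log2 difference 1.62, SE 0.13, limma adjusted p = 0.0005). Its relative Kdm5a read 7.94, 7.87, 8.56 and 8.48 and rose 1.53-fold (log2 difference 0.61, limma adjusted p = 0.0207). In both, each line lay above each culture, but Kdm5a did not pass when any 1 of the 4 arrays was left out (limma adjusted p from 0.0534 to 0.0894).

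Kdm6a and Kdm6b remove lysine 27 methylation. Kdm6a, an X-linked gene, read 9.85 and 10.19 at day 6 and 10.47 and 11.31 in the lines and rose 1.82-fold (log2 difference 0.87, SE 0.28, limma adjusted p = 0.0458), close to the threshold. Kdm6b read 10.60, 10.74, 10.43 and 10.34, and its difference of -0.29 did not pass (limma adjusted p = 0.124) though the pairs did not overlap. A second, dimmer Kdm6b probe set differed in the same direction, by -0.37, but reached the floor on the Firefly array only. After cyclic loess Kdm6b passed as lower, at -0.46 (limma adjusted p = 0.0273), and Kdm6a did not pass (0.69, limma adjusted p = 0.0886).

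In the shared core of the lysine 4 methyltransferases, all 4 genes stood above both cultures in both lines, against 46.8% of all measured genes. By the test 3 of the 4 rose, against 29.0% of all measured genes. Wdr5, which holds the core to the enzyme, read 9.38, 9.75, 10.39 and 10.44 and rose 1.80-fold (log2 difference 0.85, SE 0.17, limma adjusted p = 0.00944). Rbbp5 read 8.96, 9.19, 10.52 and 10.42 and rose 2.62-fold (1.39, SE 0.16, limma adjusted p = 0.00138). Ash2l, which with Rbbp5 stimulates the enzyme, read 9.51, 9.77, 10.90 and 10.56 and rose 2.14-fold (1.10, SE 0.18, limma adjusted p = 0.00448). The groups of these 3 genes were apart by more than the gap within either pair. Dpy30, the smallest subunit, read 8.51, 8.66, 9.10 and 8.90, a difference of 0.41 that did not pass (limma adjusted p = 0.0859).

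Of the 5 methyltransferase genes themselves 1 rose, 1 fell and 3 did not pass. Over all measured genes 29.0% rose and 17.8% fell, so these counts lie near that background. Kmt2c, an enzyme of enhancers, read 8.20 and 8.24 at day 6 and 9.46 and 9.79 in the lines and rose 2.65-fold (log2 difference 1.41, SE 0.18, limma adjusted p = 0.00197). Setd1b, of the SET1 complexes that trimethylate lysine 4 at promoters, read 9.56 and 9.43 at day 6 and 8.26 and 8.29 in the lines and was 2.33-fold lower in the lines (log2 difference -1.22, SE 0.16, limma adjusted p = 0.00202). Setd1b was the only one of the 34 genes to fall at least 2-fold.

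The relatives of these enzymes stayed within their spread. Setd1a read 9.28, 9.46, 9.59 and 9.42, and its difference of 0.13 (95% confidence interval -0.26 to 0.53) did not reach the size seen for Setd1b. Kmt2d, the closest relative of Kmt2c, read 9.28, 9.67, 9.60 and 9.31, with a difference of -0.02 (interval -0.51 to 0.47). Kmt2b, which acts at the promoters of developmental genes in embryonic stem cells, read 9.47, 9.70, 9.81 and 9.67 (0.16, interval -0.24 to 0.56). Setd1a and Kmt2b turned slightly negative after cyclic loess, at -0.06 and -0.03. Men1, which encodes menin, a partner of some KMT2 enzymes, read 9.94, 9.91, 10.24 and 10.25 and did not pass (0.32, limma adjusted p = 0.1) though its pairs did not overlap.

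Cyclic loess, which moved the median of all measured genes from 0.15 to 0.03, left 13 genes that rose and 4 that fell, against 23.3% and 21.2% of all genes; Suz12, Rnf2, Pcgf2, Pcgf3, Kdm6a and Kdm5a no longer passed. Without the Firefly array 11 rose and 1 fell, against 15.0% and 9.28% of all genes, and Eed, Phc1, Phc2 and Phc3 were lost as well as those 6; without the 38 h array 1 fell. Rnf2 also did not pass without either line (limma adjusted p = 0.0589 without the 38 h and 0.0588 without the 10 day line), nor Suz12 without the 10 day line (limma adjusted p = 0.0809).

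Other Polycomb and Trithorax genes were read for comparison. Of 35 listed, 31 were measured, of which 8 rose, 2 fell and 21 did not pass, with a median of 0.19. Over all measured genes 29.0% rose and 17.8% fell with a median of 0.15, so the rises of these genes lie near that background. Those that rose most were Rybp (log2 difference 1.48), a subunit of variant PRC1, and L3mbtl2 (1.34) and Mga (1.19), both of the Pcgf6 complex (limma adjusted p = 0.00141, 0.00812 and 0.00276). The 2 that fell were Bcorl1 (-0.65, limma adjusted p = 0.0478), a relative of the Pcgf1 partner Bcor, and Kmt2e (-0.62, limma adjusted p = 0.0239). The PRC2 subunits Rbbp4 and Rbbp7, which bind histones in several complexes, differed by 0.07 and 0.26 and did not pass. Kmt2a did not pass either, at -0.09.

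Genes that Polycomb is known to silence gave no single direction. Of 21 developmental transcription factor genes with a probe set 13 were measured, and the other 8 lay below the floor on all 4 arrays. Of those 13, 5 rose, 3 fell and 5 did not pass, where 29.0% of all measured genes rose and 17.8% fell. But Gata6, Sox1 and Olig2, 3 of the 5 that rose, lay below the floor in both day 6 cultures. These 3 were measured only through the lines, where they are high. The counts therefore describe the genes that could be read and support no direction for the list. Tbx3, which is also active in embryonic stem cells, went from 8.65 and 8.87 at day 6 to 10.87 and 11.57 in the lines (log2 difference 2.46, limma adjusted p = 0.00089). Olig2, 1 of the 3 measured only through the lines, read 9.40 and 8.58 there, a difference counted from the floor of 2.33. Cdkn2a and Cdkn2b, cell cycle inhibitor genes of a locus that Bmi1 and Cbx7 are known to repress, both fell in the lines, from 9.44 and 9.47 to 8.16 and 8.20 for Cdkn2a and from 9.86 and 9.40 to 8.44 and 8.43 for Cdkn2b (limma adjusted p = 0.00161 and 0.00473). The part of Bmi1 and Cbx7 in these values was not tested.

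The second comparison set the culture labelled Sumo2 knockdown against the Firefly culture at day 6, with 1 array each and no test. These arrays are also the day 6 side of the first comparison, so the values of the 2 comparisons are not independent. Phc1 was the only one of 34 measured genes to differ 2-fold, at 10.46 against 9.42, a 2.05-fold higher value; 0.945% of all 11740 measured genes were 2-fold higher and 0.230% 2-fold lower. By 1.5-fold, 4 genes were higher and 0 lower, against 4.09% and 2.81% of all genes. The 3 besides Phc1 were Ezh2 (1.61-fold), Jarid2 (1.58-fold) and Pcgf6 (1.52-fold). In these 4 genes the culture labelled Sumo2 knockdown lay between the Firefly culture and both lines.

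By any amount 28 of the 34 genes were higher and 6 lower in the culture labelled Sumo2 knockdown, against 53.7% of all measured genes higher. Their median log2 difference was 0.17 against 0.02 for all. PRC2 genes had the larger median, 0.49 over 7 genes, with Suz12 at 0.50, Eed at 0.49, Phf19 at 0.36 and Mtf2 at 0.24 counted from the floor. Ezh1 was lower by 0.55, the largest difference in that direction. Kdm6b, counted as higher at 0.14, has a second, dimmer probe set that differed by -0.55 and reached the floor on the Firefly array only. With the median of both probe sets Kdm6b stood at -0.20 and Pcgf3 at -0.05, in place of 0.14 and 0.04. The medians were 0.10 over 13 PRC1 genes, 0.14 over 4 demethylases and 0.20 over 10 genes of the lysine 4 methyltransferase complexes.

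Outside PRC2, Cbx7 (0.10), Kdm5b (0.13), Kmt2c (0.04) and Setd1b (-0.13) read nearly alike in both day 6 cultures, and Pcgf1 differed by 0.26. The values of these genes in the lines, given above, differed from both cultures by much more. Other genes outside PRC2 differed by more at day 6, among them Phc1 (1.04), Pcgf6 (0.60), Kmt2d (0.38), Rnf2 (0.37) and Wdr5 (0.37). The largest difference downward outside PRC2 was that of Phc3 (-0.24). Cycling markers were higher in all 9 cases in the culture labelled Sumo2 knockdown (median 0.40) and fibroblast markers lower in all 8 (median -0.52), and their part in the differences of the Polycomb genes was not tested. After cyclic loess Phc1 stood at 0.95, under 2-fold, and Pcgf3, Cbx2 and Kmt2c changed sign around 0.

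**Figure D4:**
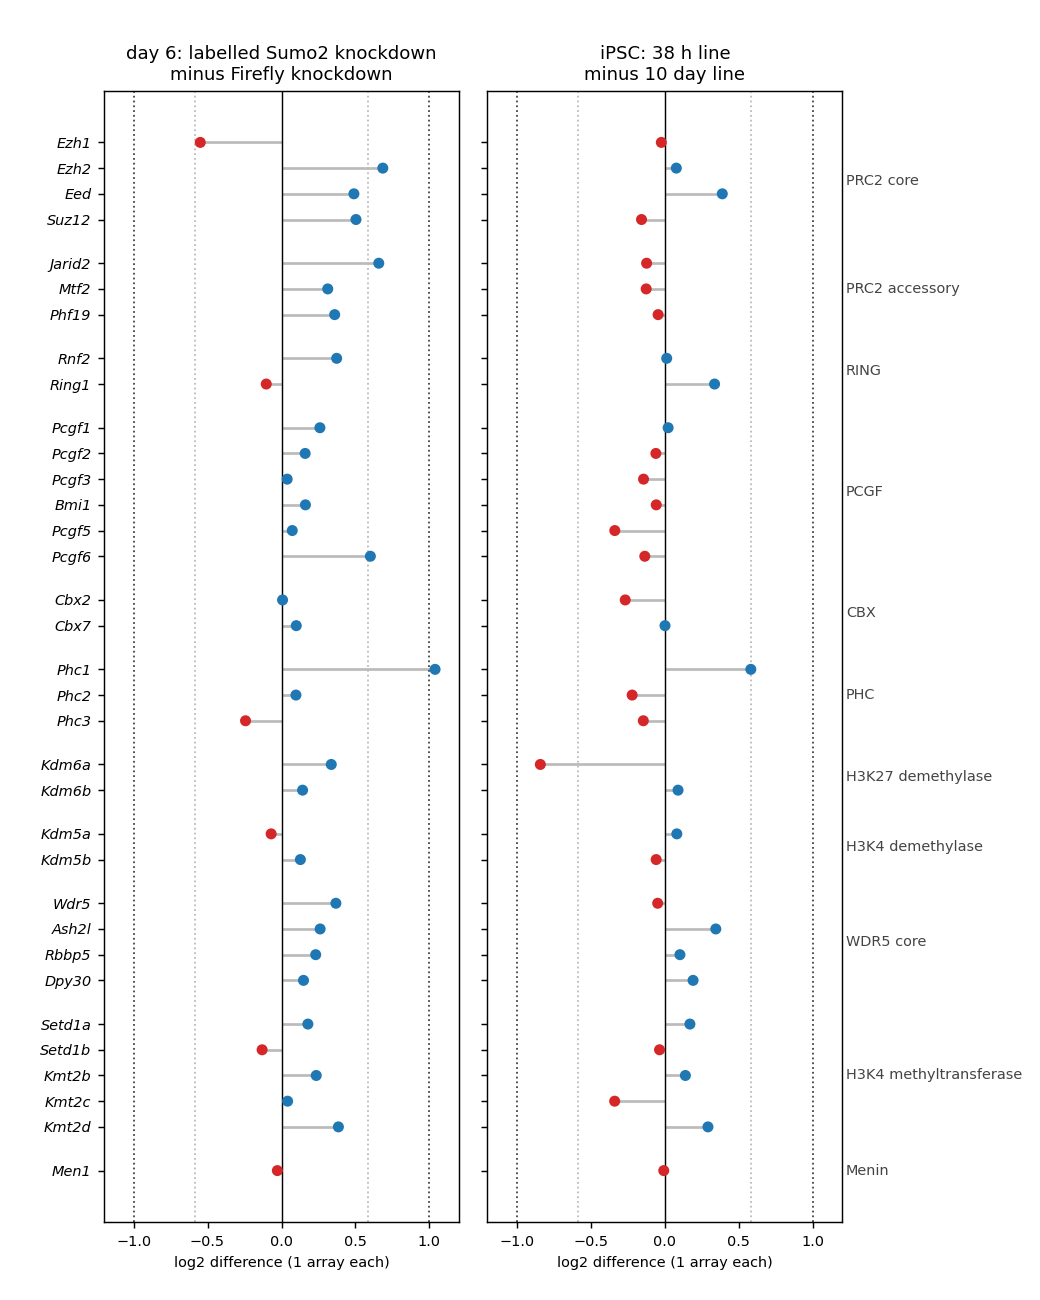
Log2 differences of the 34 measured genes between the day 6 cultures (left, labelled Sumo2 knockdown minus Firefly knockdown) and between the lines (right, 38 h minus 10 day), 1 array each, as read; dotted lines mark 1.5-fold and 2-fold. On the left Phc1 alone lies past 2-fold, at 1.04; on the right Kdm6a, at -0.84, alone lies past 1.5-fold. Bmi1 was below the floor in both lines.

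The third comparison set the iPSC lines against each other, again 1 array each. Of 33 measured genes 0 differed 2-fold, against 1.03% of 11754 measured genes that were 2-fold higher in the 38 h line and 2.19% that were 2-fold lower. The median log2 difference was -0.02, against 0.02 for all measured genes. In the 38 h line 15 genes were higher and 18 lower, against 6176 higher and 5577 lower of all 11754. Most differences were small: Cbx7 differed by 0.00, Rnf2 by 0.01, Men1 by -0.01, Ezh1 by -0.02 and Pcgf1 by 0.02. Phc1 was 0.58 higher in the 38 h line, just under 1.5-fold, followed by Eed (0.39), Ring1 (0.34) and Ash2l (0.34), while Kmt2c and Pcgf5 were each 0.34 lower.

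Kdm6a was the only gene past 1.5-fold, at 10.47 in the 38 h line and 11.31 in the 10 day line (1.79-fold lower in the 38 h line). By 1.5-fold, 4.11% of all genes were higher and 6.44% lower in that line. Kdm6a is on the X chromosome, and X-linked genes as a whole were lower there: their median was -0.57 over 393 measured genes, of which 354 were lower, against 0.03 over 11299 autosomal genes. Its X-linked relative Kdm5c, an H3 lysine 4 demethylase outside the list, read 10.50 and 11.00, and the X-silencing RNA Xist read 8.29 and 8.99. The part of the whole chromosome in the value of Kdm6a was not tested. From day 6 to the lines the median of 421 measured X-linked genes was 0.36, against 0.15 over 12243 autosomal genes. In that comparison Kdm6a no longer passed without the 10 day line (log2 difference 0.44, limma adjusted p = 0.142), nor without the Firefly culture (0.70, limma adjusted p = 0.226) or the culture labelled Sumo2 knockdown (1.03, limma adjusted p = 0.0951), and it passed without the 38 h line (1.29, limma adjusted p = 0.00142).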

How the data were processed

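The authors deposited log2 expression values, 1 per probe set and array, made with RMA; the submitters' processing notes name Affymetrix Expression Console as the software, and versions and settings are not given in the sources used here. Base 2 was taken from the range, 2.98 to 13.7, and from the scale RMA writes. RMA equalises the arrays, so a change in total RNA per cell cannot be seen. Arrays give no counting depth, so precision is limited by how few there are.

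The platform annotation gave 1 gene symbol to 23521 of the 41345 probe sets, several to 1814 and none to 16010. The comparison of lines with cultures used limma 3.58.1 in R 4.3.3 (intensity trend, 2 residual degrees of freedom) with Benjamini-Hochberg adjustment over all measured genes, and was tested on simulated data; the comparisons of 1 array with 1 used a 2-fold size rule. Members, lists and alternatives were chosen with earlier results of these data known. All members are named, and of the other Polycomb and Trithorax genes up to 3 called in each direction; Rbbp4, Rbbp7, Kmt2a and Kdm5c, and those named among marker and target genes, were chosen after their values were seen. Alternatives were cyclic loess, the median over probe sets, other floors and folds, no trend and leaving out each array. Every gene list was described by counts and its median, with no test of its own.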

Additional observations from a re-analysis of the deposited data

How the results depend on the processing

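With the higher floor 19 genes rose and 3 fell; without a floor 17 rose and 3 fell, and without the intensity trend also 17 and 3. Taking adjusted p with 2-fold gave 12 and 1. Leaving out 1 array at a time gave 11 to 15 that rose and 1 to 3 that fell, and a median of 0.44 to 0.67 in place of 0.55. With the median over probe sets 18 rose, and Pcgf3 turned to -0.062. At day 6 cyclic loess left 0 genes past 2-fold in place of 1, and 1.5-fold gave 4 higher. Between the lines 1.5-fold gave 1 lower in place of 0. Cyclic loess changed the sign of 3 genes in the comparison of lines with cultures (Cbx2, Setd1a and Kmt2b), of 3 at day 6 and of 2 between the lines (Pcgf1 and Cbx7, both near 0). The share of calls that rose went from 86.4% to 76.5% with it, and over all genes from 62.0% to 52.4%. No paired analysis was possible because the labels carry no replicate numbers that groups share and each condition has 1 array. Bmi1 and Cbx8 lay near or below the measuring floor, where signal over background limits what can be read.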

Other observations

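Other cell types were read from short marker lists, of which Gata4, Gata6, Sox17, Eomes, Hand1, Cdx2, Sox1 and Pax6 are also among the developmental genes above. Of 5 primitive endoderm genes 4 were measured, of which 2 rose in the lines, Gata6 and Pdgfra, and all 4 stood higher in the 38 h line than in the 10 day line (Gata6 at 8.41 and 7.12). Of 5 trophoblast genes Cdx2 and Elf5 lay below the floor on all 4 arrays, and Eomes rose (6.45 and 6.76 at day 6, 8.49 and 8.29 in the lines). Of 5 blood and macrophage genes Ptprc, Csf1r and Cd14 lay below the floor on all arrays, while Cd68 and Lyz2 rose. The endothelial gene Pecam1, which embryonic stem cells also express, rose, Tek fell, and Kdr lay below the floor throughout. Of 4 neural genes Sox1 and Tubb3 rose, Nes fell, and Pax6 lay below the floor. Gata6, Pdgfra, Pecam1, Sox1 and Tubb3 lay below the floor in both day 6 cultures. They were measured only through the lines, where they are high, so their calls support no direction for these lists.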
